A study of Mus musculus with 24 samples.

Results

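Hypothalamic RNA of mice sampled 3 days after the end of experimental overfeeding (ExpOF d14+3, 6 mice) was compared with that of control mice sampled on the same day (Control d14+3, 6 mice). These 12 libraries, 1 per mouse, were taken by the group named in the sample labels and are 12 of the 24 hypothalamus libraries of the series; the others were collected on the last day of infusion (d14). All animals were chow-fed male C57BL/6J mice, 18 weeks old at the start, that carried a gastric catheter. ExpOF mice received a liquid diet of 2.3 kcal/mL, supplemented with sucrose, through the catheter for 14 days, with the infused energy raised to 150% of baseline intake, whereas control mice received sterile water at the same flow. Both groups kept free access to chow, and both were infused with sterile water alone for the following 3 days. The whole hypothalamus was sequenced, so that fewer cells of a type and less RNA per cell cannot be told apart in any value given here.

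The hypothalamus holds the neurons that link body energy stores to food intake. In its arcuate nucleus, neurons that make neuropeptide Y (NPY) and agouti-related peptide promote feeding and are restrained by leptin from fat tissue, which acts through the leptin receptor and the transcription factor STAT3. Other hypothalamic neurons release vasopressin, oxytocin and further peptides that act on water balance, reproduction, stress and intake. Rodents released from overfeeding are known to eat little for some days, and the comparison asked which transcripts differed at that time, across the transcriptome and in mice killed in July as well as in mice killed in September.

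The counts assigned to genes summed to between 17199077 and 31860266 per library in ExpOF and between 20965168 and 27744316 in control mice. According to the labels each group held 3 mice of the July and 3 of the September cohort. RNA was extracted in 2 rounds, with replicates 1 to 3 of both groups in round 1 and replicates 4 to 6 in round 2. The cohorts were not balanced over the rounds. In July 2 ExpOF mice and 1 control mouse were of round 1, and 1 ExpOF mouse and 2 control mice of round 2. September held the reverse. A contrast within a cohort therefore also holds a difference in round, and a contrast within a round also holds a difference in cohort. The RNA integrity number (RIN) of round 2 was 8.8 to 10 in ExpOF mice and 7.2 to 7.9 in control mice, so that the groups did not overlap there, and in round 1 the means were 9.37 and 9.57. The exact permutation test of 3 against 3 libraries gave p = 0.1 for round 2, the smallest value it can give, and p = 0.6 for round 1 (two-sided). By cohort the mean RIN was 9.53 in ExpOF and 8.33 in control mice of July, and 9.33 and 8.9 in those of September. A principal component held 26.4% of the variance of the 12 libraries. Its highest scores were those of Control replicates 3 and 1 and of ExpOF replicate 5, which also had the highest summed levels of cytosolic ribosomal proteins. The next score, 2.19, was that of ExpOF replicate 6, which had the lowest such sum (7621 CPM). ExpOF replicate 4 stood apart in choroid plexus markers, with a summed level of 1379 CPM (counts scaled to library size by edgeR) against 77.5 to 114 CPM in the other libraries. All 16 transcription factors of hypothalamic regions were detected, with a summed level of 124 to 181 CPM, and 3 of 9 pituitary markers passed the expression filter, with a sum of at most 3.62 CPM.

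**Figure D1:**
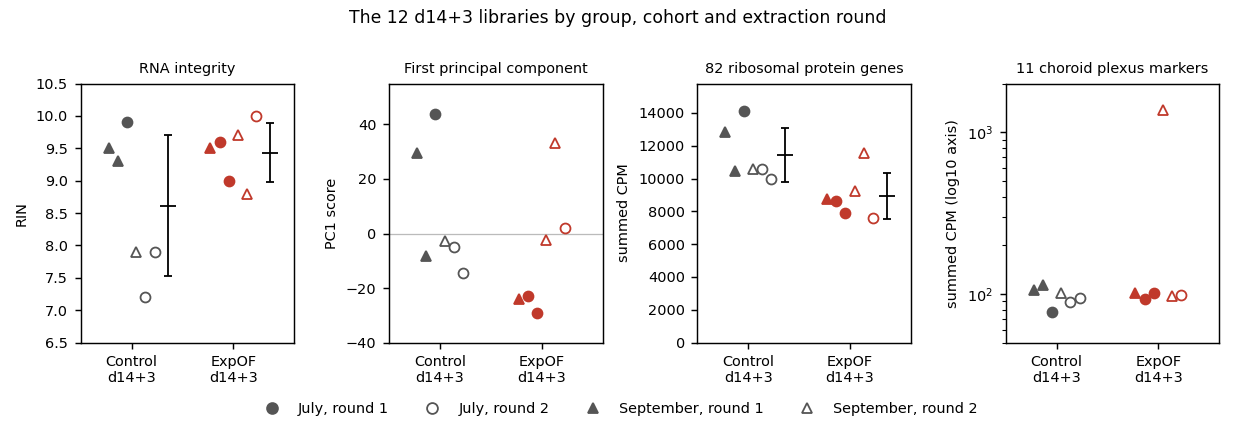
Each of the 12 d14+3 libraries by group (ExpOF, control), with its RNA integrity number, first principal component score and summed levels of ribosomal protein genes and choroid plexus markers in CPM (the last on a log10 axis), with cohort and extraction round as symbols and bars for mean and SD beside RIN and the ribosomal sum. Control replicates 3 and 1 and ExpOF replicate 5 have the highest scores and the highest ribosomal protein sums (14097, 12829 and 11526 CPM), and ExpOF replicate 4 alone has a high choroid plexus sum.

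Across all mice no gene passed the test. Of 18992 genes tested with edgeR's quasi-likelihood test, 0 had a Benjamini-Hochberg adjusted p under 0.05 (0% of those tested), and the smallest adjusted p was 0.192. At an unadjusted p under 0.05, 552 genes (2.91%) were at a higher and 798 (4.20%) at a lower level in ExpOF mice. DESeq2 called 55 genes, 7 of them higher (0.0369%) and 48 lower (0.253%), and edgeR with RIN as a covariate called 26, 5 higher (0.0263%) and 21 lower (0.111%), of which 20 were shared with DESeq2. In 23 genes every ExpOF library lay above every control library (0.121% of those tested), and in 57 every ExpOF library lay below (0.300%). The median log2 fold change of all genes tested was 0.01, with 9895 above and 9097 below 0. The p-values measure the spread between mice, and no gene named below passed the edgeR test over all mice without a covariate, so its values are given as levels and fitted log2 fold changes (ExpOF over control) with their standard errors (SE). For each gene below for which a p of DESeq2 or of the fit with RIN is given, the highest adjusted p of any alternative was 0.9999, that of the fit with all 24 libraries.

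Of the 12 genes with the smallest p-values in the higher direction, 5 were uncharacterised transcripts. Gm6206, a processed pseudogene on mm10 chromosome X (103163110 to 103165407, minus strand), was at 4.55 to 6.40 CPM in ExpOF (median 4.83) and at 2.58 to 4.00 CPM in control mice (median 2.87). Its groups did not overlap, and its log2 fold change was 0.76 (SE 0.156). It was 0.80 in July, 0.73 in September, 0.95 in round 1 and 0.59 in round 2. A choice of genes by the p over all mice favours such shared signs. The adjusted p of Gm6206 was 0.206 in edgeR, 0.00815 with DESeq2 and 0.0385 with RIN as a covariate in edgeR. Reads of a processed pseudogene can also come from its parent gene, so its count is uncertain. Gm48678, annotated as antisense to a gene on chromosome 12, was at 3.12 to 4.25 against 2.02 to 2.78 CPM. Its log2 fold change was 0.59 (SE 0.114), with no overlap. Its adjusted p was 0.206 in edgeR, 0.00968 with DESeq2 and 0.0385 with RIN as a covariate in edgeR. Whether reads were counted by strand is not given in the sources used here, so reads of this gene and of Gm37459 (log2 fold change 0.45, SE 0.113), also an antisense gene, cannot be told apart from those of the gene opposite. For Gm14827, a long intergenic RNA, and Gm21984, a processed transcript that overlaps other genes, the log2 fold changes were 0.37 and 0.52.

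Among protein-coding genes of the same group, Zfp455, a zinc finger gene, was at 3.75 to 4.72 CPM in ExpOF (median 3.94) and at 2.31 to 3.65 CPM in control mice (median 3.00), without overlap. Gpr89, which encodes a Golgi pH regulator, was at 31.1 to 34.6 against 25.5 to 31.7 CPM, and Riok2, a kinase of small ribosomal subunit maturation, at 24.1 to 28.2 against 20.7 to 24.7 CPM. The log2 fold change of both was 0.22, and both pairs of groups overlapped at the edge. With DESeq2 the adjusted p was 0.0473 for Zfp455, 0.0479 for Riok2 and 0.0759 for Gpr89. With RIN as a covariate in edgeR it was 0.0912, 0.145 and 0.0385 in the same order. Stab2 encodes a scavenger receptor of sinusoidal endothelium and was low in these libraries, at 1.93 to 4.48 CPM in ExpOF (median 2.58) and 1.57 to 2.07 CPM in control mice (median 1.94). Its log2 fold change was 0.97 in July and 0.22 in September. Pth2r, the receptor of a peptide related to parathyroid hormone, had the same pattern, with 0.74 in July and 0.16 in September, and neither difference between cohorts passed the test (edgeR adjusted p = 0.985 for each). Myh6, a cardiac myosin heavy chain, was at 4.62 to 13.4 against 3.85 to 4.89 CPM, and its log2 fold change of 0.71 was 0.42 without ExpOF replicate 1.

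Npy was among the 12 genes with the smallest p-values in the lower direction. It lies on chromosome 6 (49822710 to 49829507, plus strand). In ExpOF mice its level was 10.0 to 14.2 CPM (median 11.8) and in control mice 13.5 to 20.8 CPM (median 18.1). The 2 groups overlapped only through Control replicate 2, the lowest control library, which lay below ExpOF replicate 5, and they did not overlap within July, within round 1 or within round 2. The log2 fold change was -0.60 in July, -0.51 in September, -0.58 in round 1 and -0.54 in round 2, and over all mice it stayed between -0.62 and -0.50 in every alternative. The exact permutation test of the 12 libraries gave p = 0.00433, and the edgeR adjusted p was 0.206 over all genes and 0.00968 with DESeq2. On d14 the log2 fold change was -1.10 (edgeR adjusted p = 4.69e-05).

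Npy belonged to the appetite circuit list, 24 genes of leptin, melanocortin and NPY signalling that were all tested. Of the 24, 19 had a log2 fold change above 0 and 5 below, with 2 higher and 1 lower at an unadjusted p under 0.05, and the median was 0.08. It was 0.22 in round 1 and -0.10 in round 2, where 14 of the 24 were below 0, and 9 of the 24 differed between rounds in the test of the difference, beside 16.2% of all genes tested. The leptin receptor gene Lepr was at 3.19 to 6.23 CPM in ExpOF (median 4.92) and 2.34 to 4.85 CPM in control mice (median 3.15), a log2 fold change of 0.49 (SE 0.199; edgeR adjusted p = 0.61) that was 0.39 in July and 0.58 in September. Stat3, which carries the leptin signal to the nucleus, was at 83.9 to 92.7 against 77.7 to 86.5 CPM, a log2 fold change of 0.10 (SE 0.0434; exact permutation p = 0.00866; edgeR adjusted p over all genes = 0.64). For both genes the groups overlapped. Npy1r, a receptor of NPY, had a log2 fold change of 0.19 (SE 0.1), with 0.32 in July, 0.07 in September, 0.44 in round 1 and -0.06 in round 2.

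Agrp, which is made in the same arcuate neurons as Npy, was at 3.74 to 6.59 CPM in ExpOF (median 4.12) and 3.86 to 6.99 CPM in control mice (median 4.88), so that the groups overlapped over most of their range. The log2 fold change was -0.15 (SE 0.172; exact permutation p = 0.394; edgeR adjusted p over all genes = 0.811). It was 0.18 in round 1 and -0.53 in round 2, a difference that did not pass the test (edgeR adjusted p = 0.124). Agrp overlaps other genes on both strands, and its count is uncertain for that reason.

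Of 28 tested neuropeptide genes outside the appetite circuit, 21 had a log2 fold change below 0 (median -0.13; -0.22 in July, -0.01 in September, and -0.0574 over all mice without ExpOF replicate 6), and 1 was higher and 3 were lower at an unadjusted p under 0.05. Avp, the vasopressin precursor (chromosome 2, 130580620 to 130582554, minus strand), was at 33.8 to 64.9 CPM in ExpOF (median 38.6) and 58.7 to 167 CPM in control mice (median 68.2). Only ExpOF replicate 5 reached into the control range, and Control replicate 3 stood above all others. The log2 fold change was -0.99 (SE 0.294; edgeR adjusted p = 0.413) and -0.67 without Control replicate 3. Oxt, the oxytocin precursor, was at 47.7 to 108 CPM in ExpOF (median 56.0) and 65.2 to 182 CPM in control mice (median 85.2), with a log2 fold change of -1.28 in round 1 and -0.11 in round 2. For the neurokinin B precursor Tac2 the log2 fold change was -0.28 (SE 0.116). Nmu, the neuromedin U precursor and the one higher at an unadjusted p under 0.05, was below 0.716 CPM or at it in every library, and its log2 fold change of 0.79 was 1.45 in July and 0.10 in September.

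**Figure D2:**
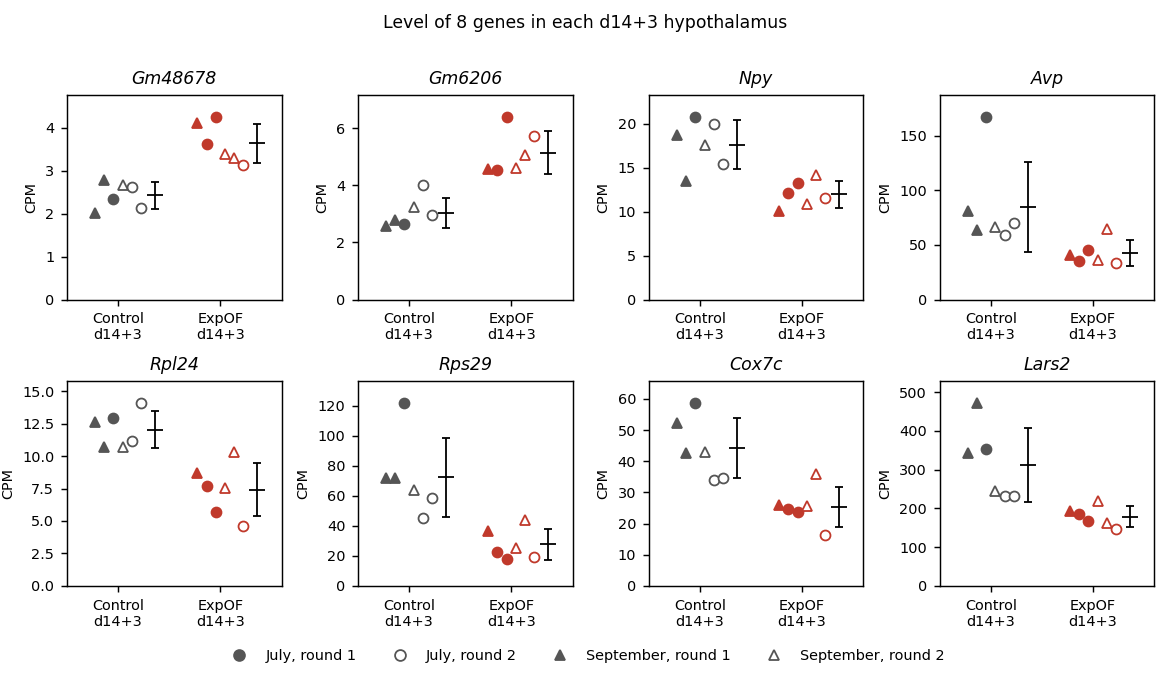
Level of 8 genes in each of the 12 d14+3 libraries in CPM, with control and ExpOF mice side by side, 1 point per mouse, symbols for cohort and extraction round, and bars for mean and SD. For Gm48678 all ExpOF points (3.12 to 4.25 CPM) lie above the control points (2.02 to 2.78 CPM), and for Npy the ranges of 10.0 to 14.2 and 13.5 to 20.8 CPM meet at 1 control library.

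The genes of the cytosolic ribosome formed the largest group with one direction. Of 82 cytosolic ribosomal protein genes, all of them tested, 80 had a log2 fold change below 0. At an unadjusted p under 0.05, 66 were lower, beside 4.20% of all genes tested, whereas 0 were higher. The lower genes numbered 14 with all 24 libraries in the fit and 50 without Control replicate 3. The median of the 82 genes was -0.42, beside 0.01 over all genes. Their summed level was 7621 to 11526 CPM in ExpOF and 10000.0 to 14097 CPM in control mice, so that ExpOF replicate 5 reached into the control range. Rpl24 (chromosome 16, 55966275 to 55971435, plus strand) was at 4.60 to 10.3 CPM in ExpOF (median 7.63) and 10.7 to 14.1 CPM in control mice (median 11.9), with no overlap in either round. Its log2 fold change was -0.69 (SE 0.143; edgeR adjusted p = 0.206; DESeq2 adjusted p = 0.00815). Rps29 had the lowest log2 fold change of the list, at 18.2 to 44.1 CPM in ExpOF (median 24.0) and 45.5 to 122 CPM in control mice (median 67.9), which did not overlap (log2 fold change -1.39, SE 0.351).

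Rpl5 and Rpl11, whose proteins bind the 5S ribosomal RNA, had log2 fold changes of -0.61 and -0.78, and both had an adjusted p of 0.0385 with RIN as a covariate in edgeR. For Rpl35a, Rps23, Rps16 and the paralogue Rpl22l1 the values were -0.63, -0.69, -0.67 and -0.42. In 9 of the 82 genes every ExpOF library lay below every control library, beside 0.300% of all genes tested. DESeq2 called 18 of the 82 genes, beside 0.253% of all genes tested called lower. With RIN as a covariate edgeR called 4 of the 82, beside 0.111%. Ribosomal protein genes have many processed pseudogene copies, so their counts are uncertain, and 1 such copy, Rpl3-ps2, was itself at 1.54 to 2.12 against 2.66 to 3.70 CPM without overlap. Another pseudogene, Gm10736, had a log2 fold change of -1.10.

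The ribosomal protein list had a median below 0 in both cohorts and both rounds, with different sizes. Its median log2 fold change was -0.61 in July and -0.23 in September, with 81 and 74 of 82 genes below 0. It was -0.62 in round 1 and -0.17 in round 2, with 68 genes below 0 in round 2. In the test of the difference 1 gene of the list differed between rounds, beside 16.2% of all genes tested. With 1 library left out the median ranged from -0.73 to -0.52 in round 1 and from -0.36 to -0.04 in round 2. Over all mice, leaving out any 1 library gave medians from -0.51 (without ExpOF replicate 5) to -0.34 (without Control replicate 3). ExpOF replicate 5 and Control replicates 3 and 1 had both the highest scores of the first principal component and high sums of this list, and the part of that component in the result was not tested. The median was -0.48 with RIN as a covariate.

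Genes for the nuclear-encoded subunits of oxidative phosphorylation (OXPHOS), the mitochondrial enzyme complexes that produce ATP, lay in the same direction. Of 76 tested genes, 73 had a log2 fold change below 0, with a median of -0.22. At an unadjusted p under 0.05, 0 were higher and 37 lower. The lower genes numbered 3 with all 24 libraries in the fit and 20 without Control replicate 3. Cox7c, a subunit of complex IV, was at 16.4 to 36 CPM in ExpOF (median 25.1) and 34.1 to 58.7 CPM in control mice (median 42.9). ExpOF replicate 5 was the highest of its group, and the groups overlapped by little. Its log2 fold change was -0.80 (SE 0.176; edgeR adjusted p = 0.227, and 0.0385 with RIN as a covariate). Ndufa3 of complex I, Atp5k of ATP synthase and Cox5b of complex IV had -0.60, -0.77 and -0.67.

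The 2 rounds gave different medians for the OXPHOS list: it was -0.51 in round 1 and 0.03 in round 2, and 22 of the 76 genes differed between rounds in the edgeR test of the difference, beside 16.2% of all genes tested. That share of all genes rested on single libraries, with 3082 calls in all and 291 without Control replicate 3, and the same holds for the counts of lists that differed between rounds below. By cohort the medians were -0.36 in July and -0.10 in September. The 77 tested genes of the mitochondrial ribosome followed the same division, with medians of -0.27 in round 1 and 0.06 in round 2. Over all mice the median was -0.11, and it was -0.0522 without Control replicate 3. At an unadjusted p under 0.05, 7 were lower and 0 higher, and 0 were lower with all 24 libraries in the fit. One of the 7, Mrps21, had a log2 fold change of -0.44. The 31 proteasome subunits had a median of -0.09, with 0 higher and 2 lower, and the median was -0.0446 without Control replicate 3. In round 1 it was -0.26 and in round 2 it was 0.08, and 7 of the 31 differed between rounds, beside 16.2% of all genes tested.

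Of the 8 tested genes of the mitochondrial genome, 6 had a log2 fold change above 0 over all mice, and the median was 0.08. Without Control replicate 1 the median was -0.02, with 5 of the 8 below 0, and without ExpOF replicate 3 it was 0.00. In round 1 the median was 0.31 and in round 2 it was -0.26. Of the 8, 6 differed between rounds, beside 16.2% of all genes tested. For mt-Co1, a core subunit of complex IV, the values were 0.33 and -0.12 (edgeR adjusted p of the difference = 0.0209). For mt-Nd6, which the other mitochondrial strand encodes, they were 0.02 and -0.47 (adjusted p of the difference = 0.0459).

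Lars2, the mitochondrial leucyl-tRNA synthetase gene (chromosome 9, 123366927 to 123462664, plus strand), was at 146 to 219 CPM in ExpOF (median 177) and 231 to 472 CPM in control mice (median 294). The groups did not overlap in all mice or within either round. The log2 fold change was -0.80 (SE 0.172), with -0.71 in July, -0.88 in September, -1.09 in round 1 and -0.42 in round 2, and the edgeR adjusted p was 0.218, or 0.0237 with RIN as a covariate. This gene and Gm15564, an antisense gene on chromosome 16 at 0.842 to 2.09 against 2.33 to 7.26 CPM, hold stretches that resemble ribosomal RNA, so their counts may include reads from it. The mitochondrial tRNA gene mt-Tl1 was at 1.05 to 2.17 against 2.75 to 6.75 CPM, again without overlap. Gm24270, a small RNA gene within another gene of chromosome 9, had a log2 fold change of -1.39 and an adjusted p of 0.0237 in edgeR with RIN as a covariate.

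Host genes of small nucleolar RNAs, which guide the chemical modification of ribosomal RNA from the introns of their hosts, were described as a list of 17 tested genes. Of these, 14 had a log2 fold change below 0, with 0 higher and 9 lower at an unadjusted p under 0.05 and a median of -0.27. With all 24 libraries in the fit 1 was lower at that p. The median was -0.37 in July, -0.24 in September, -0.40 in round 1 and -0.23 in round 2. Gas5 was at 85.0 to 127 CPM in ExpOF (median 113) and 135 to 156 CPM in control mice (median 139), with no overlap and a log2 fold change of -0.36 (SE 0.0979; edgeR adjusted p = 0.316). Zfas1 was at 24.7 to 38.6 against 37.4 to 52.7 CPM, 2410006H16Rik at 9.79 to 17.8 against 17.1 to 26.5 CPM and Snhg10 at 1.24 to 2.37 against 1.85 to 3.34 CPM. The ranges of these 3 genes overlapped at their edges. All 4 share bases with other genes of their strand, and reads may have been split among them.

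Other genes called with DESeq2 or with RIN as a covariate in edgeR belonged to none of these lists. Tmsb10, a small actin-binding protein, was at 43.6 to 91.3 CPM in ExpOF (median 72.5) and 102 to 164 CPM in control mice (median 126), with no overlap (log2 fold change -0.87, SE 0.209; DESeq2 adjusted p = 0.0154). Hmgb3, a chromatin protein, was at 16.5 to 21.4 against 22.1 to 27.2 CPM, and Timm23, part of the protein import channel of the inner mitochondrial membrane, at 6.40 to 10.0 against 9.42 to 15.1 CPM. The groups of Hmgb3 did not overlap. Hmgb3 and Timm23 each had an adjusted p of 0.0385 with RIN as a covariate in edgeR.

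Immediate early genes, which neurons transcribe within minutes of being active, were described as a list. Of 21 tested, 20 had a log2 fold change below 0 over all mice (median -0.18), with 0 higher and 3 lower at an unadjusted p under 0.05. Without Control replicate 1 the median was -0.09 and without ExpOF replicate 1 it was -0.12. Within cohorts it was -0.12 in July and -0.28 in September, but -0.43 in round 1 and 0.07 in round 2. Of the 21, 7 differed between rounds, beside 16.2% of all genes tested. Fos was at 3.45 to 7.60 CPM in ExpOF (median 6.20) and 5.82 to 14.9 CPM in control mice (median 8.38), with overlapping groups and a log2 fold change of -0.70 (SE 0.227; edgeR adjusted p = 0.467). Dusp1, a phosphatase that limits MAP kinase signalling, had -0.85 in round 1 and -0.09 in round 2 (edgeR adjusted p of the difference = 0.0195). For Junb the log2 fold changes were -0.84 and 0.03, and for Nr4a1 -0.60 and 0.07 (adjusted p of the difference = 0.0918 and 0.0313).

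The 18 clock genes had a median of 0.01, with 2 higher and 1 lower at an unadjusted p under 0.05. These were the negative-feedback genes Per2, at 26.6 to 35.4 against 22.2 to 29.1 CPM (log2 fold change 0.25, SE 0.0849), and Per3 (0.18, SE 0.0681), and the repressor Bhlhe41, at 32.9 to 42.9 against 42.4 to 52.7 CPM (-0.22, SE 0.0703). Their groups overlapped. The 16 glucocorticoid target genes had a median of -0.03, with 0 higher and 3 lower, among them Ddit4, an inhibitor of mTORC1 signalling (-0.37), and the metallothionein Mt1 (-0.32).

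Genes of lipid synthesis were described in 2 lists. Of 22 genes of cholesterol synthesis 18 had a log2 fold change below 0, beside 47.9% of all genes tested, and the median was -0.08 (-0.18 in July and 0.01 in September; -0.0429 over all mice without Control replicate 3), with 0 higher and 2 lower at an unadjusted p under 0.05, one of which was Insig1, which holds back the activation of sterol-responsive transcription (-0.20, SE 0.0813; -0.38 in July and -0.02 in September). The 18 genes of fatty acid synthesis and desaturation had a median of 0.00, with 0 higher and 1 lower. The 39 synaptic adhesion and scaffold genes had a median of 0.03 (0 higher, 1 lower), with 0.15 in round 1 and -0.06 in round 2. Of the 39, 13 differed between rounds, beside 16.2% of all genes tested. The 34 ion channels had a median of 0.08 (0 and 0), with 0.14 in round 1 and 0.01 in round 2. Of the 34, 8 differed between rounds, beside the same 16.2%.

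The 27 genes of endoplasmic reticulum stress and heat shock had a median of 0.07, with 1 higher and 1 lower, and 0.02 without ExpOF replicate 3. Hsp90b1, a chaperone of the endoplasmic reticulum, was at 508 to 694 CPM in ExpOF (median 545) and 451 to 523 CPM in control mice (median 492), a log2 fold change of 0.20 (SE 0.0676) with the groups overlapping. Of 20 tested inflammation genes 15 had a log2 fold change above 0 (median 0.11; 0.12 in July, 0.02 in September), and 3 were higher and 0 lower at an unadjusted p under 0.05. Serpina3n, a protease inhibitor of reactive astrocytes, was at 50.3 to 76.4 against 37.0 to 55.7 CPM, and its log2 fold change was 0.29 in July and 0.28 in September. Lcn2, a secreted acute-phase protein, was at 15.1 CPM in ExpOF replicate 3 and at 9.12 CPM in ExpOF replicate 1, and between 0.403 and 2.86 CPM in the other 10 libraries. Its log2 fold change of 2.11 (SE 0.899) was 1.38 without ExpOF replicate 3 and 1.85 without ExpOF replicate 1.

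**Figure D3:**
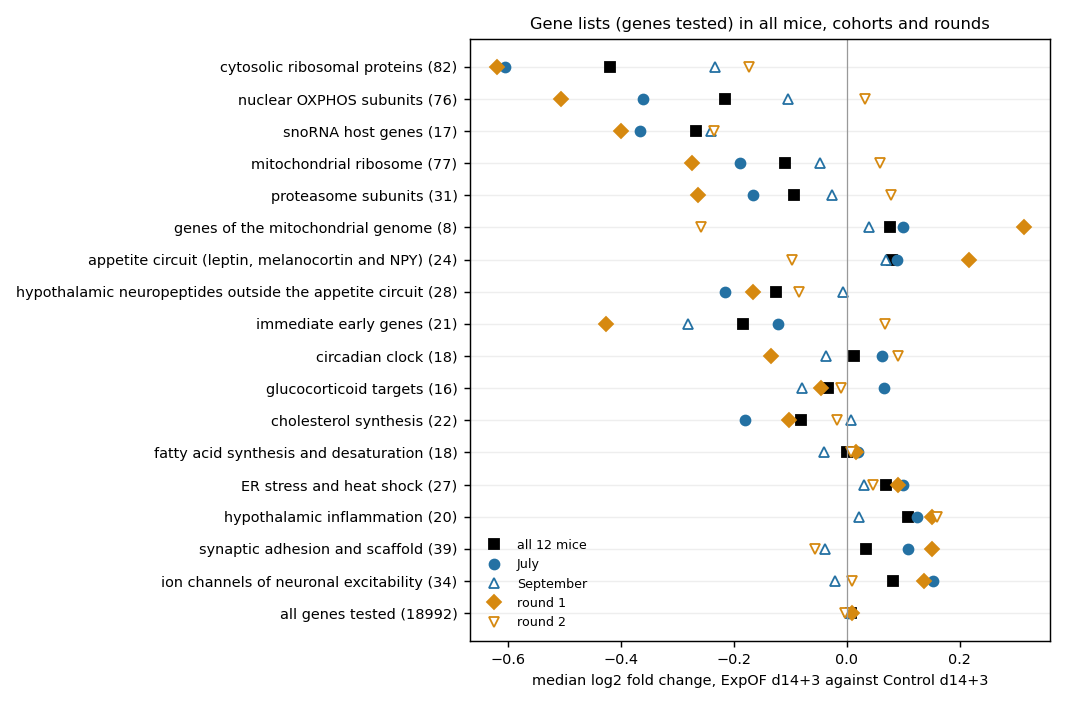
Median log2 fold change (ExpOF over control) of each gene list over all mice and within the July and September cohorts and extraction rounds 1 and 2. Ribosomal proteins lie below 0 in all of them (-0.42 over all mice, -0.61, -0.23, -0.62 and -0.17), OXPHOS subunits lie at -0.51 in round 1 and 0.03 in round 2, and immediate early genes at -0.43 and 0.07.

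Lists of cell type markers were read beside these groups. Markers of neurons, astrocytes, oligodendrocyte precursors, endothelium and pericytes had medians between -0.04 and 0.01, and microglia and macrophages one of 0.06. By round the medians of pericytes were -0.25 and 0.12 and those of microglia and macrophages -0.13 and 0.18, so that round 2 was above 0 and round 1 below for both. Of 13 markers of tanycytes and ependyma, the cells that line the third ventricle, 10 had a log2 fold change below 0 (median -0.21), with 1 higher and 4 lower at an unadjusted p under 0.05, and their summed level was 208 to 235 CPM in ExpOF and 226 to 274 CPM in control mice. Nes, an intermediate filament of tanycytes, was at 13.9 to 17.4 CPM in ExpOF (median 14.9) and 16.8 to 21.5 CPM in control mice (median 17.8), a log2 fold change of -0.28 (SE 0.0694; DESeq2 adjusted p = 0.0424). Fabp7, a fatty acid binding protein of radial glia, had -0.45 (SE 0.124), with -0.76 in July and -0.13 in September. Of the genes of motile cilia, Ccdc153 had -0.40 and Foxj1 -0.25, and Foxj1 was at -0.52 in round 1 and 0.03 in round 2 (edgeR adjusted p of the difference = 0.0279).

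Markers of tissue next to the hypothalamus, of oligodendrocytes and of blood had medians below 0, and few of their members had an unadjusted p under 0.05. Of 11 tested markers of cortex, thalamus and striatum, 10 had a log2 fold change below 0 (median -0.20; 1 lower at an unadjusted p under 0.05), and their sum was 180 to 304 CPM in ExpOF and 196 to 322 CPM in control mice. Adora2a, a receptor of striatal neurons, was at 0.823 to 2.53 against 1.71 to 3.74 CPM (log2 fold change -0.69, SE 0.273). Oligodendrocyte markers had a median of -0.12, with 0 of 10 at an unadjusted p under 0.05, and leptomeningeal markers one of -0.13, which was 0.0297 without Control replicate 1. Haemoglobin and other erythrocyte genes had a median of -0.39 over 5 genes, 1 of them lower at an unadjusted p under 0.05, with -0.84 in round 1 and 0.06 in round 2. Choroid plexus markers had a median of 0.46 (-0.03 in July and 1.03 in September), and -0.22 without ExpOF replicate 4, in which Kl was at 33.4 CPM against 5.56 to 7.64 CPM in the other 11 libraries. The part of any of these markers in the gene results was not tested.

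Agreement between the cohorts was asked first across all genes. The log2 fold changes of July and September shared their sign in 10858 of 18992 genes (57.2%), with a Pearson correlation of 0.145 and a Spearman correlation of 0.178 across genes, which are not independent replicates and share the normalisation. In July 611 genes were higher (3.22%) and 967 lower (5.09%) at an unadjusted p under 0.05, and in September 305 (1.61%) and 206 (1.08%). Of the 1578 July genes 1066 (67.6%) had the same sign in September, and of the 511 September genes 323 (63.2%) had the same sign in July. Both cohorts had an unadjusted p under 0.05 for 87 genes, and 69 of them had one sign, 20 higher and 49 lower. With edgeR 0 genes passed the adjusted threshold in either cohort, and DESeq2 called 57 in July and 0 in September.

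In 164 genes (0.864%) the groups did not overlap within July nor within September and had the same direction in both, and in 59 (0.311%) the directions were opposite. Gm6206, Rpl24 and Lars2 lay among the 80 genes without overlap over all mice, which by construction have 1 direction in every cohort and round. A small p over all mice also favours 1 direction. Of the genes at an unadjusted p under 0.05, 87.4% had 1 direction in both cohorts and both rounds. Over all genes tested this share was 23.8%. For genes named by that p, the values by cohort and round are therefore no separate support.

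The test of the difference between the cohorts called 0 genes with edgeR, with 643 at an unadjusted p under 0.05, and 0 with DESeq2, with 587. The genes with the smallest p-values of that difference had opposite signs in July and September, which a choice by that difference favours. Etv5, a transcription factor of the ETS family, had log2 fold changes of 0.29 and -0.20. Heyl, a target of Notch signalling, had -0.41 and 0.16, Ccdc191 had 0.43 and -0.12, and the uncharacterised C920006O11Rik and Gm42500 had -0.38 and 0.30, and -0.33 and 0.77 (edgeR adjusted p = 0.985 for each of the 5 genes).

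Between the extraction rounds, by contrast, most genes had opposite signs. Round 1 alone had 1412 genes called higher (7.43%) and 1711 called lower (9.01%) with edgeR, and round 2 had 0 (0%), with 1086 higher and 775 lower there at an unadjusted p under 0.05 and 0 called by DESeq2. Only 6170 genes (32.5%) had the same sign in both rounds, with a Pearson correlation of -0.206 and a Spearman correlation of -0.367 across genes. Of the 3123 genes called in round 1, 459 (14.7%) had the same sign in round 2. The test of the difference called 3082 genes (16.2%), of which 2178 were also called in round 1. Genes whose groups did not overlap within both rounds numbered 125 with the same direction (0.658%) and 1010 with opposite directions (5.32%).

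These counts depended on single libraries. Round 1 had 0 calls without ExpOF replicate 3, without Control replicate 1 or without Control replicate 3, and 876 without ExpOF replicate 2, against 6175 without Control replicate 2. When only its 6 libraries entered the fit it had 3. The difference between rounds had 291 calls without Control replicate 3, 390 without Control replicate 1, 514 without ExpOF replicate 5, 520 without Control replicate 6, 1057 without ExpOF replicate 3, 1969 without ExpOF replicate 2 and 5755 without Control replicate 2. The genes called higher in round 1 had a median exon length of 6754 bases and those called lower one of 2947 bases, against 3787 bases over all genes tested. In round 2 RIN did not overlap between the groups, and its part in the difference was not tested. The part of the uneven split of the cohorts over the rounds was not tested either.

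The 5 genes with the smallest p-values of the difference between rounds showed the opposite signs by mouse, which a choice by that difference favours. Zfpm1, a cofactor of GATA transcription factors, was at 10.1, 8.34 and 7.77 CPM in the ExpOF and 15.2, 12.9 and 16.6 CPM in the control libraries of round 1. In round 2 it was at 10.7, 13.3 and 12.8 CPM in the ExpOF and 10.0, 10.1 and 10.0 CPM in the control libraries, so that the groups did not overlap in either round but changed order (log2 fold changes -0.77 and 0.28). Grm4, a metabotropic glutamate receptor, had -0.64 in round 1 and 0.54 in round 2, Ncdn, a neuronal protein of dendrite growth, -0.59 and 0.37, Lrtm2 -0.45 and 0.36, and the collagen gene Col11a1 0.45 and -0.33. Each of the 5 differences had an edgeR adjusted p of 0.00972.

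**Figure D4:**
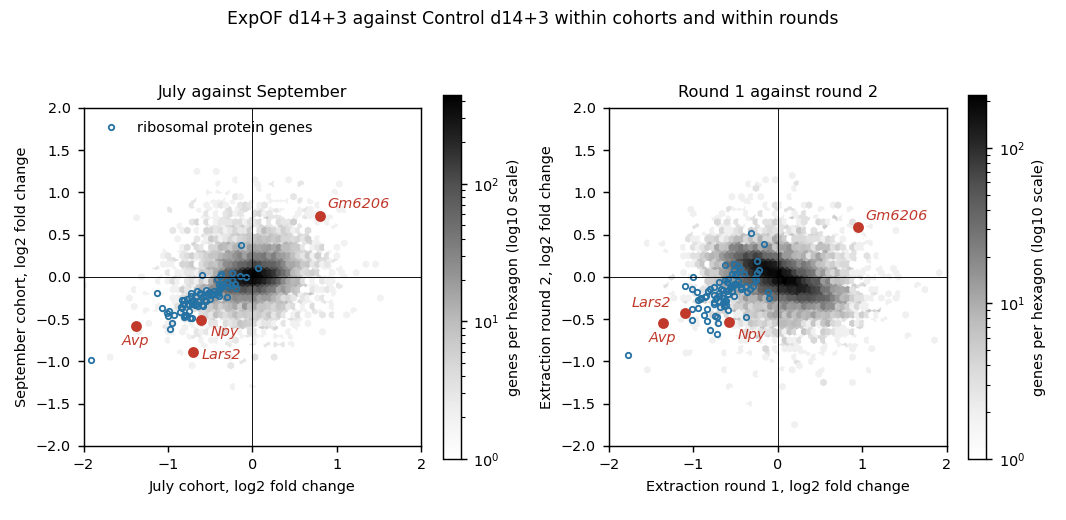
Log2 fold change (ExpOF over control) of the genes tested in September against July, and in extraction round 2 against round 1, shown as hexagons shaded by the number of genes (log10 scale) between -2 and 2, with ribosomal protein genes and 4 named genes as points. Signs are shared by 57.2% of the genes between the cohorts and by 32.5% between the rounds. Gm6206 and Npy keep their sign on both plots, which a small p over all mice favours.

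Compared with the effect on d14, measured in other mice, no difference passed the test for any single gene: the test of the difference between the days called 0 of 18992 genes with edgeR, with 840 (4.42%) at an unadjusted p under 0.05 and a smallest adjusted p of 0.903. The log2 fold changes of d14 and d14+3 were -0.27 and -0.80 for Lars2, -0.41 and -0.80 for Cox7c, -0.83 and -0.99 for Avp and 0.12 and -0.70 for Fos. The median of the ribosomal protein list was -0.35 on d14, that of the OXPHOS list -0.31 and that of the snoRNA host genes -0.29.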

How the data were processed

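Poly-A selected RNA of 1 hypothalamus per mouse was sequenced as stranded paired-end libraries. According to the submitters' processing notes and the study's methods, reads were aligned to mm10 with STAR and counted per gene with featureCounts 1.6.4. The count table that the authors deposited holds whole-number counts that were not normalised, and 55144 of 55471 genes received a symbol. Groups, cohort, extraction round and RIN came from the sample labels.

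Counts were fitted in R 4.3.3 with edgeR 4.0.16 (TMM scaling, genes kept by filterByExpr at min.count 10 and min.total.count 15, quasi-likelihood F-test in its robust form) over 23 libraries of 4 groups, without Control d14 replicate 4, which the study left out. A call is a Benjamini-Hochberg adjusted p under 0.05 over all 18992 genes tested. Cohorts and rounds were fitted as cells of group by cohort or group by round. CPM are TMM-scaled values computed from the deposited counts. Two-sided exact permutation tests used log2 CPM with a prior count of 2. Median exon lengths came from the length column of the count table.

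The genes named are the 12 with the smallest p-values in each direction with a mean of at least 50 counts, the 5 with the smallest p-values of the difference between cohorts and between rounds, Npy, Agrp, Stat3, up to 4 members of each gene list by p-value, the 5 genes with the smallest adjusted p in DESeq2 1.42.0 and with RIN as a covariate, and the 10 with the largest fold change among those without overlap. Not all of the 159 genes so chosen are described, and values for 3 of them are left out. The members and lists were chosen with earlier results of these data known. The deviations of libraries with the same replicate number were correlated between -0.21 and 0.22, so the numbers were not taken as pairs. No 2 libraries of a group were duplicates (chi-square per degree of freedom of at least 5.37 over 30 pairs). The edgeR fit over all mice was tested on simulated data that held no effect of cohort, round or RIN, and the other fits were not tested so. Alternatives were DESeq2, its size factors, other count filters, only the 12 libraries, all 24 libraries, covariates, a replicate block, a RIN of at least 8 and each library left out.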

Additional observations from a re-analysis of the deposited data

Results flagged for a closer look

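In 188 groups of 6 libraries, the highest or lowest value was compared with its nearest neighbour relative to the range of the group, a comparison that chance alone passes in about 1 of 20 groups. The libraries that lay far from the rest of their group were mostly Control replicate 3 and ExpOF replicates 3, 4 and 5. Whether the values listed here outnumber the share that chance gives was not tested. Those of ExpOF replicate 4 all belong to 1 list, the choroid plexus markers. Control replicate 3 was highest for Avp (167 CPM, next 81.0), Cox5b (199.7, next 132) and Rps29 (122, next 72.0) and lowest for Gm37459 (8.51, next 10.6). ExpOF replicate 3 was highest for Hsp90b1 (694 CPM, next 562) and Serpina3n (76.4, next 56.4), and ExpOF replicate 5 for Mrps21 (22.8, next 16.2) and Oxt (108, next 58.3). ExpOF replicate 1 was highest for Myh6 (13.4 CPM, next 7.68), and ExpOF replicate 6 was lowest for Rpl22l1 (39.2, next 53.1). ExpOF replicate 4 was highest for the choroid plexus genes Kl (33.4 CPM, next 7.64), Tmem72 (8.21, next 0.648) and Slc4a5 (7.11, next 0.440), and for the sum of that list (1379, next 101).

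The effect on d14+3 differed between the extraction rounds for 3082 genes in the edgeR test of the difference. Among the genes named, the log2 fold change of round 2 minus that of round 1 was 1.05 for Zfpm1, 1.19 for Grm4, 0.96 for Ncdn, 0.81 for Lrtm2, 0.76 for Dusp1, 0.67 for Nr4a1 and 0.55 for Foxj1. It was -0.78 for Col11a1, -0.45 for mt-Co1 and -0.49 for mt-Nd6.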

How the results depend on the processing

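Over all mice 0 genes were called, and 55 were called with DESeq2, 26 with RIN as a covariate, 13 with RIN as a covariate in only the 12 d14+3 libraries (chosen after seeing the data), 1 without the libraries of RIN under 8 and 1 with the replicate block, although the numbers do not pair the mice; leaving out 1 library gave 0 each time. The 1350 genes at an unadjusted p under 0.05 became 2492 with a filter of 1 count, 466 with all 24 libraries, 2364 with RIN as a covariate, 2347 with RIN in only the 12 libraries, 3290 without RIN under 8 and 736 with the replicate block, and 850 (without Control replicate 3) to 2373 (without ExpOF replicate 5) with 1 library left out. In July the 0 calls became 57 with DESeq2 and 0 to 1 with 1 library left out (1 without ExpOF replicate 3), and the 1578 unadjusted genes 2553 with RIN as a covariate, 960 in only that cohort's 6 libraries and 727 (without Control replicate 3) to 2743 (without Control replicate 6). The 643 unadjusted genes of the difference between cohorts ranged from 451 to 1069 (highest without Control replicate 6). The 3123 calls of round 1 became 3 in only its 6 libraries and 0 to 6175 with 1 library left out, and its 6558 unadjusted genes 4013 (without Control replicate 3) to 8152. For round 2 the 1861 unadjusted genes ranged from 917 (without Control replicate 6) to 2686, and the 3082 calls of the difference between rounds from 291 to 5755. Of the list medians of at least 0.1 in size, that of leptomeninges ranged from -0.19 to 0.0297 (reversed without Control replicate 1) and that of choroid plexus from -0.22 (reversed without ExpOF replicate 4) to 0.59 with 1 library left out. The 79 named genes had 1708 values under the alternatives, of which 0 reversed and 51 passed the threshold where they had not before, 29 of them with DESeq2. The cause of these changes was not tested. Counting error limits the genes with fewest counts, such as Nmu, most.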
